A study of Homo sapiens with 9 samples.

Results

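The S100 proteins are small calcium-binding proteins, and 10 of their genes were examined here: S100A2, S100A4, S100A6, S100A7, S100A8, S100A9, S100A10, S100A11, S100A14 and S100A16. They were matched by Ensembl gene ID among the 60308 gene IDs of the count tables, and all 10 were among the 18435 genes with enough reads to be tested. RNA was sequenced from 9 cultures of the MCF10A line, human mammary epithelial cells that have been immortalised. All of them carried ectopic MYC (plasmid pBABE-hygro-MYC) and a mutant PI3K (plasmid pMN-IRES-GFP-PI3KH1047R), which the submitters describe as transforming the cells. Each culture also held a hairpin RNA construct (pLKO-tetON-puro) that was switched on with 2 µg/mL doxycycline for 72 hours in growing cells. The hairpin was a scrambled control (shSCR) or 1 of 2 hairpins (shG9a_1 and shG9a_4) that target EHMT2, which encodes the histone methyltransferase G9a, with 3 cultures of each, numbered 1 to 3 in the sample names. All groups share the ectopic genes and the drug, no culture without them was analysed here, and all come from 1 parental line. The labels do not say what same-numbered cultures have in common.

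Reads in genes came to 53065611 to 76958831 per library. Every level below is in CPM, the reads of a gene scaled to a common number of reads in the tested genes, with TMM factors between libraries. EHMT2 was at 51.1, 45.2 and 45.4 CPM under shSCR, 17.6, 22.6 and 21.03 under shG9a_1 and 32.1, 27.2 and 33.5 under shG9a_4, with no overlap between the 3 groups. Its fall passed the threshold (adjusted p under 0.05 in edgeR) in shG9a_1 (log2 fold change −1.21, adjusted p = 0.00766) and missed it in shG9a_4 (−0.61, adjusted p = 0.259). The keratin KRT5 was at 1842 to 3211 CPM in every library, whereas the hormone receptors ESR1 and PGR stayed under 1 CPM in all 9.

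S100 proteins are found only in vertebrates. Most form dimers, change shape when calcium binds to their EF-hand loops, and then attach to target proteins inside the cell such as annexins, cytoskeletal proteins and p53. Some are also released and act outside the cell: S100A8 and S100A9 together form calprotectin, which withholds zinc and manganese from microbes and signals through the receptors TLR4 and RAGE (gene AGER). Calprotectin is abundant in neutrophils and monocytes, and stressed or inflamed epithelia also make it. Nearly all of the genes lie together on the long arm of chromosome 1, in the region that also holds genes of the skin barrier.

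Per kilobase of annotated exon (GENCODE release 29, all exons of a gene merged), S100A6 was the most abundant member, with a mean of 2366 (2114 to 2801) CPM per kilobase over the 9 libraries, the lowest and highest library in brackets. S100A9 followed at 1264 (553 to 2224) and S100A8 at 618 (257 to 1043), the subunits of calprotectin. S100A11 stood at 375 (339 to 458), S100A2 at 229 (176 to 296) and S100A16 at 178 (153 to 203) CPM per kilobase. In this order the ranges overlapped between S100A6 and S100A9, S100A9 and S100A8, S100A8 and S100A11, and S100A2 and S100A16, but not between S100A11 and S100A2. Below them were S100A10 at 108 (93.4 to 131), S100A4 at 100.2 (79.1 to 126) and S100A14 at 47.1 (24.98 to 84.4), each overlapping the next. S100A7 was far below the rest at 1.97 (0.519 to 3.93) CPM per kilobase, with 15 to 133 reads per library. The sources used here do not give the annotation used for counting, so these lengths may differ from those counted.

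The subunits of calprotectin were lowest in the cultures numbered 3. S100A8 was at 700.0, 565 and 258 CPM under shSCR, 843, 964 and 309 under shG9a_1 and 621, 1049.7 and 282 under shG9a_4, for cultures 1, 2 and 3 of each. S100A9 was at 866, 631 and 319 CPM under shSCR, 899, 1283 and 404 under shG9a_1 and 769.7, 1010.1 and 382 under shG9a_4. In both genes the culture numbered 3 was the lowest of its group in all 3 groups, and those 3 libraries lay below all 6 others, while the hairpin groups overlapped widely. S100A8 ranged 4.06-fold and S100A9 4.02-fold over the 9 libraries, but the ratio of S100A9 to S100A8 CPM stayed between 0.962 and 1.35, with a median of 1.24. S100A7, psoriasin, an antimicrobial protein of skin and breast epithelium, was at 1.08, 1.51 and 0.391 CPM under shSCR, 1.47, 1.58 and 0.278 under shG9a_1 and 0.579, 2.11 and 0.513 under shG9a_4. Its libraries of number 3 were likewise the lowest of each group and below all 6 others, and those of number 2 lay above all 6 others, as they did in 3.22% of all genes tested. S100A7 reads may be undercounted or shared with the near-identical copy S100A7A, since reads with several matches were not counted.

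**Figure D1:**
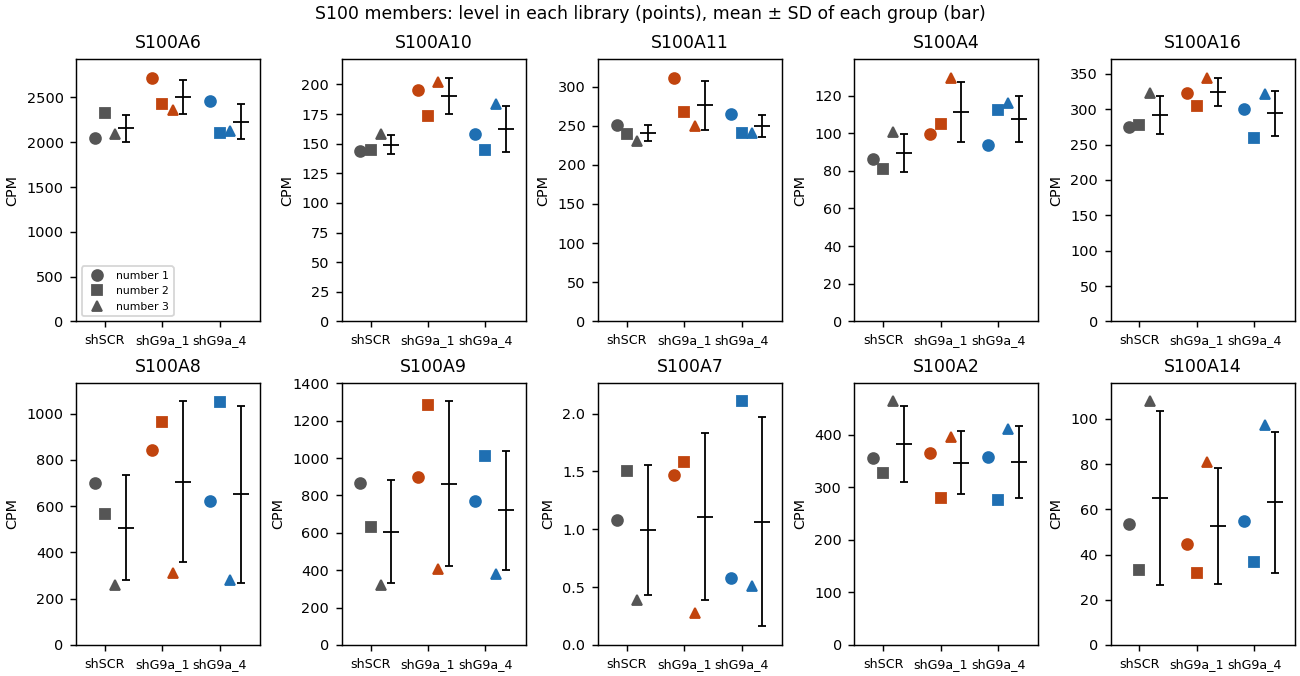
Level of each of the 10 S100 genes in CPM (vertical axis, from 0) in the 3 hairpin groups. Each point is a library, its shape gives the culture number (circle 1, square 2, triangle 3), and the bars are the mean and SD of each group (n = 3). The triangles are lowest in S100A8, S100A9 and S100A7 and highest in S100A2 and S100A14.

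These differences were tested with the culture number as a factor beside the hairpin, in a joint F-test of the 3 numbers over all genes. Of the 10 members, 9 had an unadjusted p under 0.05 (23.2% of all genes) and 6 passed the threshold in edgeR, the same 6 as with DESeq2, where 7.47% of the genes tested passed in edgeR and 8.84% with DESeq2. They were S100A14 (adjusted p = 5.22e-06), S100A8 (0.000255), S100A9 (0.000513), S100A2 (0.00221), S100A7 (0.00996) and S100A4 (0.0457). The log2 difference of S100A8 was −1.57 (SE 0.15) from number 2 to number 3 and −1.35 (SE 0.15) from number 1 to number 3. For S100A9 the same differences were −1.37 (SE 0.15) and −1.21 (SE 0.15), and for S100A7 −2.12 (SE 0.35) and −1.37 (SE 0.37). Numbers 1 and 2 differed less, with log2 differences (2 minus 1) of 0.22 (SE 0.15) in S100A8, 0.16 (SE 0.14) in S100A9 and 0.75 (SE 0.30) in S100A7. Over all genes tested, the libraries of number 3 were the lowest of each group in 13.9%, and below all 6 others in 7.2%. Without shG9a_1 culture 3 or shG9a_4 culture 3 the S100A7 call was lost, at adjusted p-values of 0.0646 and 0.0534.

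S100A8, S100A9 and S100A7 were all lowest in number 3, so the sequences around their starts are shown beside that of S100A14, which was highest there. Each is the RefSeq window (GRCh38.p14) from 250 bases before to 50 after a start, on the gene's own strand, with the TATA box letters TATAAA in capitals where the strand holds them. S100A8 has 3 such windows, of which the second is printed. The windows are S100A8 at chr1:153391024-153391323 (minus strand), S100A9 at chr1:153357604-153357903 (plus strand), S100A7 at chr1:153460602-153460901 (minus strand) and S100A14 at chr1:153616276-153616575 (minus strand).
S100A8: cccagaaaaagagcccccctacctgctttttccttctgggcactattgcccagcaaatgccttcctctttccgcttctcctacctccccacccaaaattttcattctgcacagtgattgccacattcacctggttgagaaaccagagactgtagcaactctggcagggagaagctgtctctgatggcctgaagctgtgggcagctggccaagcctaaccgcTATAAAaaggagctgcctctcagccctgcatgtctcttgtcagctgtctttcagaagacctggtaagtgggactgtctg
S100A9: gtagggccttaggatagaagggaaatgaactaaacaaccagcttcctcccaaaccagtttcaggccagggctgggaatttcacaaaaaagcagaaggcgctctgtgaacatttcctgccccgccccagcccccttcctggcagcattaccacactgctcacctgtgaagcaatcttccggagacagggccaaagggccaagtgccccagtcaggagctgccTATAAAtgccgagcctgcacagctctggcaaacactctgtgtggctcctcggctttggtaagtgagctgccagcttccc
S100A7: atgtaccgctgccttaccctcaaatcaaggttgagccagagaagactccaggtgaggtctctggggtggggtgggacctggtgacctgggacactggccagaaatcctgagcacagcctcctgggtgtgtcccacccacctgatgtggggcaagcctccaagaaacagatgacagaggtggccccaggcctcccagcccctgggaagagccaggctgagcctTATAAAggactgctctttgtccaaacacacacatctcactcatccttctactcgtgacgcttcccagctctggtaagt
S100A14: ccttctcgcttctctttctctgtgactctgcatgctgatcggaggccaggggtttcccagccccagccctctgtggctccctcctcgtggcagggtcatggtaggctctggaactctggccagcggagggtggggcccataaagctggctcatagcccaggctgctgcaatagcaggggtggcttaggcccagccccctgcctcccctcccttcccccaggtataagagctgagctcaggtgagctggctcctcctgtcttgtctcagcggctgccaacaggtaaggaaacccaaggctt

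Counted from the start, the first T of the match was at −29 in S100A8 and S100A9 and at −28 in S100A7. Over the 14 windows of all 10 members, the letters TATAAA on the gene's strand were in those 3 genes and in S100A4, where they began at −31. S100A4, unlike those 3 genes, was highest in number 3 of each group. Of the 3 windows of S100A8, the first did not hold them and the third, which overlaps the second, held them at −126. The windows of S100A2, S100A6, S100A10, S100A11, S100A14 and S100A16 did not hold them. Of 35116 RefSeq windows of this length 7.33% held TATAAA on the gene's strand, and 11.5% on either. Other motifs were searched on both strands: CACGTG, an E-box that MYC binds, was in no member (7.26% of all windows), and TGANTCA, an AP-1 site, was in S100A2 alone (7.71%). The C/EBP core TTNNGNAA was in 5 members, S100A6, S100A8, S100A9, S100A11 and S100A16, and in 36.8% of all windows. These shares are per window, whereas S100A2 and S100A16 had 2 windows each and S100A8 had 3. Counts of members and shares of windows are therefore unlike measures. The searches describe letters in these windows, and no binding was measured.

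S100A12, calgranulin C, which is no member, lies between S100A9 and S100A8 in the RefSeq order. It was at 0.575 to 2.15 CPM, lowest in number 3 of each group, and passed the threshold by number (adjusted p = 0.00556), with a log2 difference of −1.49 (SE 0.22) between numbers 3 and 2. The RefSeq window of S100A12 held TATAAA on the gene's strand at −8, TGANTCA at −57 and the C/EBP core on both strands. Along the chromosome from S100A10 to S100A1, RefSeq lists 94 genes, of which 19 were tested, 14 of them S100 genes. The S100 genes that were lower in number 3 and passed were S100A9, S100A12, S100A8 and S100A7, which follow each other without a tested gene between them. S100A6, the next tested gene, differed by a log2 of −0.064 (SE 0.084) between numbers 3 and 2 (adjusted p = 0.573). Further on, S100A2 and S100A14, with S100A16 between them, differed in the opposite direction. Between S100A11 and S100A9 lie 67 listed genes, and the 5 tested there, TCHH, IVL, SPRR1B, SPRR2D and SPRR2A of the skin barrier, did not pass the threshold by number. They averaged 0.324, 0.496, 0.236, 0.407 and 0.164 CPM in that order, with SEs of 0.30 to 0.49 for number 3 minus number 2. At such low levels, not passing does not show that they were unchanged. IVL, the gene of involucrin, had a log2 difference of −1.20 (SE 0.34) between numbers 3 and 2, with the same sign as those of the calgranulins, at an adjusted p of 0.0929.

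**Figure D2:**
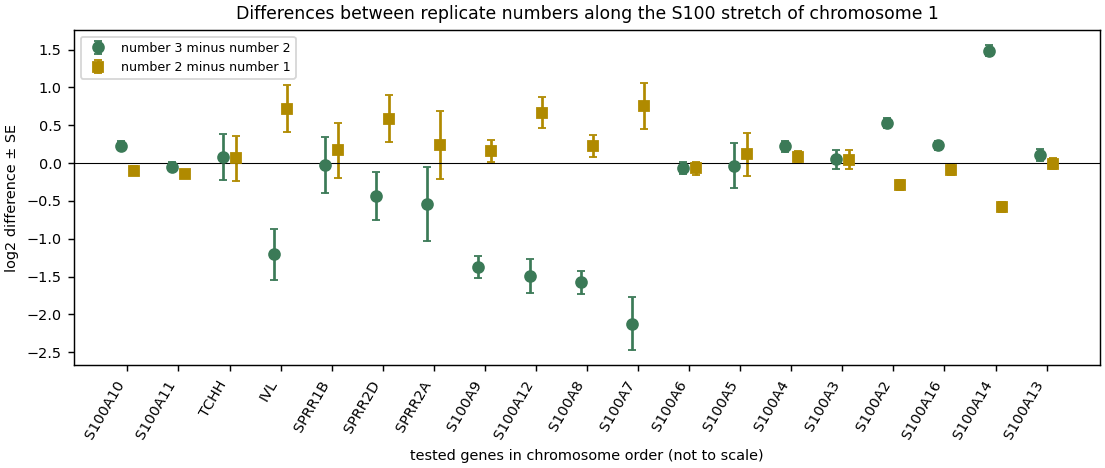
Log2 difference between culture numbers (vertical axis, points with SE bars) for the 19 tested genes of the S100 stretch of chromosome 1 in RefSeq order (horizontal axis, not to scale). Green circles are number 3 minus number 2 and gold squares number 2 minus number 1. S100A9, S100A12, S100A8 and S100A7 form a run of low values in green, from −1.37 to −2.12, and S100A14 stands highest at 1.48.

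S100A14 and S100A2, which are made by stratified and glandular epithelia, were highest in number 3 and lowest in number 2. S100A14 was at 53.4, 33.4 and 108 CPM under shSCR, 44.7, 31.9 and 81.1 under shG9a_1 and 54.9, 36.7 and 97.5 under shG9a_4. S100A2, a gene that p63 and p53 are known to activate, was at 355, 326 and 463 CPM under shSCR, 365, 279.9 and 395 under shG9a_1 and 357, 276 and 411 under shG9a_4. In both genes the 3 libraries of number 3 lay above all 6 others, as they did in 6.92% of all genes, and those of number 2 lay below all 6 others, as in 2% of all genes. S100A14 differed by a log2 of 1.48 (SE 0.073) between numbers 3 and 2 and by −0.58 (SE 0.072) between numbers 2 and 1. For S100A2 these were 0.53 (SE 0.067) and −0.29 (SE 0.067). The hairpin groups overlapped in both.

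S100A4, a regulator of non-muscle myosin linked to cell motility, had the highest adjusted p of the 6. It was at 86.5, 81.1 and 101 CPM under shSCR, 99.4, 105 and 129 under shG9a_1 and 93.5, 112 and 116 under shG9a_4, the highest library of each group being number 3, and differed by a log2 of 0.22 (SE 0.071) between numbers 3 and 2. The call was lost with unstranded counts (adjusted p = 0.0582) and without shSCR culture 2 (0.0651) or 3 (0.221), shG9a_1 culture 1 (0.0885) or 3 (0.276), or shG9a_4 culture 1 (0.128) or 3 (0.129). S100A10, S100A16, S100A11 and S100A6 did not pass it, at adjusted p-values of 0.0835, 0.0792, 0.121 and 0.573. S100A16 passed under 1 alternative, with no filter on low counts (0.0387). S100A16, an epithelial member of little known function, spanned only 259.7 to 344 CPM, and was highest in number 3 of each group, as were S100A10, S100A4, S100A2 and S100A14 (13% of all genes). S100A11 was highest in number 1 of each group (4.61% of all genes).

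The sum of squares of log2 CPM over the 9 libraries was split into a part between hairpin groups, a part between culture numbers and the rest. The number took 95.4% of it in S100A14, 87.6% in S100A8, 86.4% in S100A2, 83.9% in S100A9 and 83.1% in S100A7, against 33.9% in the median gene. The hairpin took 3.57%, 5.95%, 7.69%, 8.57% and 0.0127% in the same genes, against 18.9% in the median gene. S100A10 was the reverse, with 66.05% for the hairpin and 27.7% for the number. S100A6 (50.9% and 16.7%), S100A4 (47.1% and 41.7%) and S100A11 (45.2% and 44.9%) also had larger shares for the hairpin than for the number, and S100A16 did not (30.9% and 57.9%). These shares describe where the spread lay and carry no test.

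**Figure D3:**
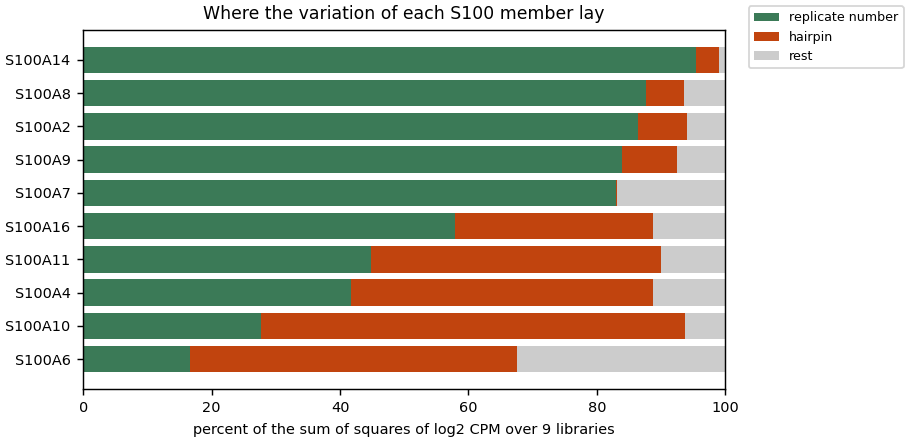
Share of each gene's sum of squares of log2 CPM (horizontal axis, percent) that lay between culture numbers (green), between hairpin groups (orange) and in neither (grey), over 9 libraries. The green bar is longest in S100A14 at 95.4%, and the orange bar is longest in S100A10 at 66.05%.

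Other genes of the innate and epithelial response also differed by number. From a list of 18 epithelial antimicrobial and innate genes, 15 were tested and 8 passed the threshold by number (7.47% of all genes): LCN2, SAA1, SAA2, IL1B, CXCL8, CCL20, IL6 and NFKBIZ. All 8 were lower in number 3 than in number 2, by log2 differences from −0.58 (SE 0.074) in SAA1, an acute-phase protein, to −1.64 (SE 0.18) in CXCL8, a neutrophil-attracting chemokine. LCN2, which binds bacterial iron carriers, was at 1.54 to 8.26 CPM and differed by −1.56 (SE 0.20). Between numbers 3 and 1 LCN2 differed by 0.10 (SE 0.21) and between numbers 2 and 1 by 1.66 (SE 0.20), where the differences of S100A8 were −1.35 (SE 0.15) and 0.22 (SE 0.15). The log2 difference of number 2 minus 1 was also positive in SAA1 (0.40), SAA2 (0.67), CXCL8 (1.16), CCL20 (0.84), IL6 (0.72) and NFKBIZ (0.58). In IL1B it was −0.0075. Number 3 minus 1 was −0.18 in SAA1, −0.35 in SAA2, −0.26 in NFKBIZ and −0.49 in IL6. It was −0.49 in CXCL8, −0.61 in CCL20 and −0.83 in IL1B. IL1A, SLPI, PI3, RNASE7, LTF, DEFB1 and CAMP did not pass, at adjusted p-values of 0.0755 to 0.760.

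Of 8 receptors of S100 proteins 1 passed by number, TLR4, where 7.47% of all genes passed. TLR4 was at 1.85 to 5.25 CPM and higher in number 3 than in number 1 by a log2 difference of 0.80 (SE 0.14), with an adjusted p of 0.0118. AGER, the gene of RAGE, was at 1.06 to 1.58 CPM (adjusted p = 0.793), and BSG, the gene of the S100A9 receptor basigin, at 152 to 275 CPM (0.623). Of 10 partners inside the cell none passed in edgeR. At an unadjusted p under 0.05 there were 3 (23.2% of all genes), and DESeq2 called 1 (8.84%). Among them, ANXA2, which binds S100A10, was at 1433 to 2203 CPM (adjusted p = 0.433), and AHNAK, a large scaffold bound by the S100A10 and ANXA2 complex, had an adjusted p of 0.0603.

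Markers of cell types were read beside these results. Of 11 neutrophil and monocyte markers, 9 were under 1 CPM in all 9 libraries: PTPRC, ITGAM, CSF3R, FCGR3B, MPO, ELANE, LYZ, CD68 and FCN1. The summed level of the list was 3.61 to 4.25 CPM in number 1, 5.79 to 8.29 in number 2 and 4.68 to 5.44 in number 3, against 258 to 1049.7 CPM of S100A8 alone. CD14 (1.91 to 6.24 CPM) and S100A12 made up most of it, and both passed the threshold by number. CD14 averaged 2.61, 5.07 and 4.16 CPM in numbers 1, 2 and 3 (adjusted p = 0.0253), lowest in number 1. Of 10 breast epithelial markers 9 were tested and 7 passed by number (7.47% of all genes), EPCAM, CDH1, KRT5, KRT14, KRT17, KRT8 and TP63. All 7 were higher in number 3 than in number 2, as S100A2 and S100A14 were. CDH1, the gene of E-cadherin, was at 13.1 to 47.99 CPM and differed by a log2 of 1.44 (SE 0.12), and EPCAM by 1.45 (SE 0.12). The summed level of the epithelial list was 3200.2 to 4104 CPM in number 1, 2443 to 3176 in number 2 and 3869 to 4534 in number 3. KRT5 alone gave 1842 to 3211 CPM of it, and differed by a log2 of 0.064 (SE 0.082) between numbers 3 and 1.

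Of 10 fibroblast markers 6 were tested and 3 passed by number, where 7.47% of all genes did. DCN and LUM were lower in number 3, and FAP was lowest in number 1. COL1A2, COL3A1, PDGFRA, PDGFRB and THY1 were under 1 CPM in all 9 libraries. COL1A1, at 1.03 to 1.92 CPM, and PDPN, at 11.01 to 17.7 CPM, were above it in all 9 and did not pass by number (adjusted p = 0.806 and 0.179). The summed level was 305 to 461 CPM in number 1, 376 to 469 in number 2 and 175 to 242 in number 3, of which DCN alone gave 135 to 413 CPM. Libraries of number 3 were also the shallowest, with 53065611 to 54477100 reads in genes against 62486212 to 76958831 in the others, and had more unmapped reads, 3.67 to 4.34% against 2.75 to 3.21%. Mitochondrial genes took 0.587 to 0.887% of reads in number 3 and 0.537 to 0.646% in the others. The part of these features in the S100 differences was not tested. In bulk RNA, fewer cells that make a transcript and less of it per cell cannot be told apart.

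**Figure D4:**
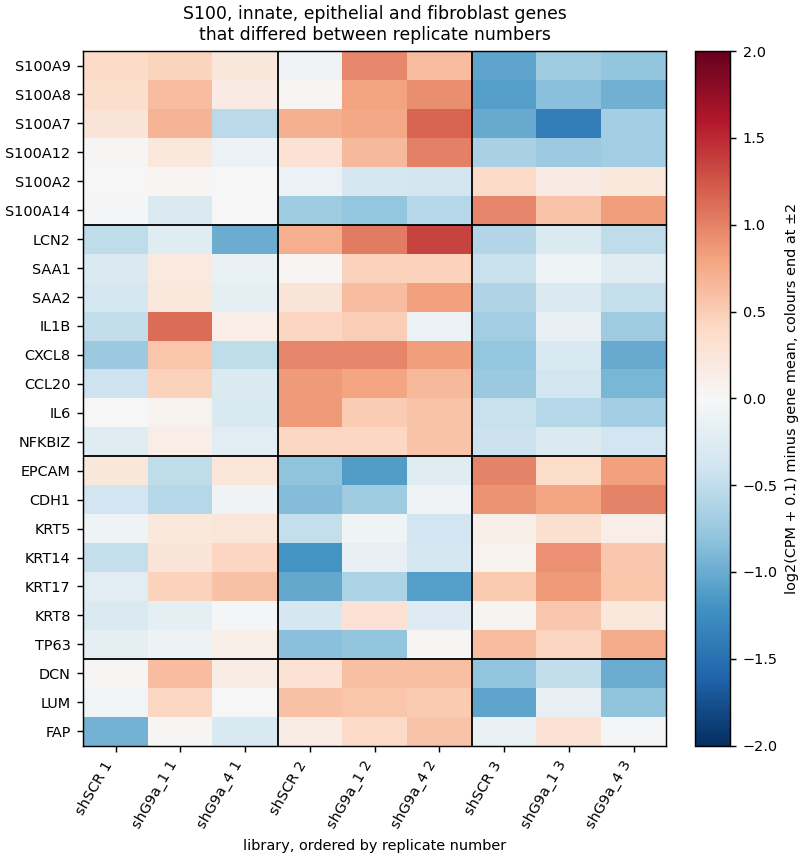
Log2(CPM + 0.1) minus the gene's mean over the 9 libraries (colour, ending at ±2) for S100, innate, epithelial and fibroblast genes that passed the threshold by culture number. S100A4, which also passed, is not shown. Columns are libraries ordered by culture number, and black lines part the numbers and the gene groups. The 4 calgranulin and psoriasin genes at the top are blue in the 3 libraries of number 3, where S100A2, S100A14, EPCAM and CDH1 are red.

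Against shSCR, no member passed the threshold in shG9a_1 in edgeR, where 0.038% of the genes tested passed, nor with DESeq2 (0.434%). At an unadjusted p under 0.05 there were 4, S100A4, S100A6, S100A10 and S100A11, all higher in shG9a_1, against 7.5% of all genes. The log2 fold changes were positive in 8 members and negative in 2, with a median of 0.21, where the median of all genes tested was 0.00086 and 9262 of 18435 were positive. S100A6 and S100A10 had no overlap, all 3 shG9a_1 libraries lying above all 3 shSCR libraries, as 7.15% of all genes did. In 7 members shG9a_1 was above the same-numbered shSCR library in 3 of 3 pairs (19.5% of all genes), and in S100A14 it was below in 3 of 3 (19.6%). With the culture number as a block, 8 members had an unadjusted p under 0.05, all but S100A2 and S100A7, against 13.3% of all genes.

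S100A10, also called p11, binds ANXA2 in a complex at the cell membrane, a docking site of plasminogen. It was at 144, 145 and 158 CPM under shSCR, 196, 173 and 202 under shG9a_1 and 159, 145 and 183 under shG9a_4, with group means of 149 ± 7.92, 190.3 ± 15.2 and 162 ± 19.6 CPM (± SD, n = 3). Every shG9a_1 library lay above every shSCR library, and the shG9a_4 libraries overlapped both groups. The log2 fold change in shG9a_1 was 0.35 (adjusted p = 0.474, SE 0.093) in edgeR with group means alone. With the culture number as a block it was 0.35 (adjusted p = 0.0390, SE 0.061), which passed the threshold, and S100A10 was the only member that did, where 0.776% of all genes did. With the block and 1 library left out in turn, it passed in 2 of 9 fits, without shG9a_1 culture 2 (adjusted p = 0.0334) and without shG9a_4 culture 2 (0.00866), and the log2 fold change was 0.32 to 0.41 with adjusted p-values of 0.00866 to 0.242. Without shG9a_4 culture 2, S100A4 (adjusted p = 0.0115) and S100A8 (0.0388) passed as well, each in 1 of the 9 fits. Within pairs the log2 ratios of shG9a_1 to shSCR were 0.44, 0.26 and 0.35.

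S100A4 was higher than the same-numbered shSCR library in all 6 knockdown libraries, as was S100A11, a pattern seen in 6.1% of all genes. The group means of S100A4 were 89.4 ± 10.2, 111 ± 15.96 and 107 ± 12.2 CPM (± SD, n = 3) in the order shSCR, shG9a_1, shG9a_4, with log2 fold changes of 0.32 (adjusted p = 0.620, SE 0.12) and 0.26 (SE 0.12) in edgeR. With the replicate block the adjusted p in shG9a_1 was 0.0781. S100A11, which binds ANXA1 and has a role in keratinocyte growth control, was at 251, 239 and 231 CPM under shSCR, 311, 267 and 249.6 under shG9a_1 and 266, 241 and 241 under shG9a_4. Its log2 fold change in shG9a_1 was 0.20 (adjusted p = 0.644, SE 0.085), and processed pseudogenes of S100A11 may have taken or shared some of its reads. S100A6, calcyclin, was at 2053, 2329.6 and 2090.0 CPM under shSCR, 2719, 2429 and 2365 under shG9a_1 and 2459.8, 2109 and 2124 under shG9a_4, a log2 fold change of 0.22 (adjusted p = 0.641, SE 0.089) in shG9a_1.

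For the calprotectin genes the spread between numbers exceeded the differences between hairpins. In the same order, the group means of S100A8 were 508 ± 226, 705 ± 348 and 651 ± 385 CPM (± SD, n = 3), and shG9a_1 differed from shSCR by a log2 of 0.47 (adjusted p = 0.888, SE 0.51). Within pairs the log2 ratios to shSCR were 0.27, 0.77 and 0.26 in shG9a_1, and in shG9a_4 they were −0.17, 0.89 and 0.13. S100A9 had group means of 606 ± 274, 862 ± 441 and 720.5 ± 317 CPM, a log2 difference of 0.51 (adjusted p = 0.852, SE 0.45) between shG9a_1 and shSCR, and within-pair log2 ratios of 0.054, 1.02 and 0.34. The replicate block cut the SE in shG9a_1 from 0.51 to 0.15 for S100A8 and from 0.45 to 0.14 for S100A9, and neither passed with it (adjusted p = 0.229 and 0.179). S100A8, S100A9 and S100A10 did pass in edgeR with no filter on low counts, at 3.13e-05, 3.49e-06 and 0.0112, and so did S100A8 in shG9a_4 (0.0315). Without the filter 288 of 35793 genes tested passed in shG9a_1, against 7 of 18435 with it. The cause of that difference was not tested.

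The other 4 members had small or uneven differences in shG9a_1. S100A14 differed by a log2 of −0.30 (adjusted p = 0.930, SE 0.46), with within-pair log2 ratios of −0.26, −0.065 and −0.41, and without shSCR culture 3 it turned to 0.28. With the block it stayed negative, at −0.17 without shSCR culture 3 and from −0.32 to −0.17 over the 9 fits with 1 library left out. S100A2 was at −0.14 (SE 0.17), S100A16 at 0.15 (SE 0.093) and S100A7 at 0.15 (SE 0.67). With all 9 libraries, none of these 4 passed the threshold in a hairpin comparison, with or without the block.

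In shG9a_4, where EHMT2 was lowered less, no member passed in edgeR or DESeq2 (0.0271% and 0.114% of all genes), none had an unadjusted p under 0.05 (2.38%), and none passed with the block (0.0759%), where S100A4 had an unadjusted p under 0.05 (4.9%). None was free of overlap with shSCR, where 3.25% of all genes lay higher and 3.18% lower without overlap. The log2 fold changes ran from −0.13 in S100A2 to 0.36 in S100A8, with a median of 0.065. That of S100A10 was 0.12 (SE 0.093) and that of S100A4 0.26 (SE 0.12). The shared shSCR libraries enter both hairpin comparisons. Between the hairpins, no member passed (0% of all genes, 0.0325% with DESeq2), 1 had an unadjusted p under 0.05 (4.09%), S100A10 with a log2 difference of −0.23 (SE 0.093) from shG9a_1 to shG9a_4, and the median over the 10 members was −0.13. With the block 4 had an unadjusted p under 0.05 (8.78%), S100A10, S100A11, S100A14 and S100A16. For the mean of both hairpins against shSCR no member passed either (0.0488%, 0.184% with the block and 0.217% with DESeq2), S100A4 and S100A10 having an unadjusted p under 0.05 (4.74%) with log2 values of 0.29 (SE 0.11) and 0.24 (SE 0.081). With the block 6 did (9.56%), S100A2, S100A4, S100A8, S100A9, S100A10 and S100A11.

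**Figure D5:**
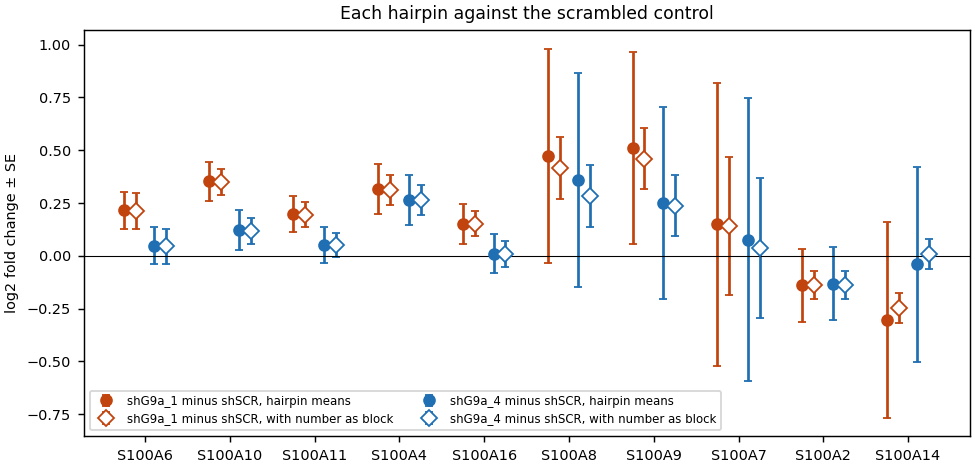
Log2 fold change against shSCR (vertical axis, points with SE bars) of the 10 S100 genes for shG9a_1 (orange) and shG9a_4 (blue). Filled circles are the fit with hairpin means alone and open diamonds the fit with the culture number as a block. The bars of S100A8, S100A9, S100A7, S100A2 and S100A14 shorten most with the block, and S100A10 in shG9a_1, at 0.35, is the only member that passed the threshold with it.

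In the authors' deposited table for shG9a_1 against shSCR, S100A10 had a posterior probability of differential expression (PPDE) of 0.999 with a fold of 1.27, and the other 9 members had at most 0.0252. A PPDE over 0.95 was given to 322 of the 10748 genes that had a name and a PPDE in that deposited table, or 3%. In the authors' deposited table for shG9a_4 the highest PPDE of a member was 0.00245, that of S100A4 with a fold of 1.20. Of the 10745 genes with a name and a PPDE there, 66, or 0.614%, were over 0.95.

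Of the genes listed beside the members, none of the 8 receptors or 10 partners passed the threshold in either hairpin, with or without the block. In shG9a_1 the median log2 fold change was 0.094 over the 8 receptors and 0.12 over the 10 partners, against 0.00086 over all genes. ANXA2 had 0.23 (adjusted p = 0.681, SE 0.11), AHNAK 0.28 (adjusted p = 0.692, SE 0.13) and ANXA1 0.24 (adjusted p = 0.616, SE 0.087), and FABP5, a fatty acid carrier that binds S100A7, −0.31 (adjusted p = 0.592, SE 0.099). Of the 15 innate genes tested 13 had positive log2 fold changes in shG9a_1, with a median of 0.41, and SAA1 passed with the block, at 0.42 (adjusted p = 0.0400, SE 0.074). With the block 0.776% of all genes passed in shG9a_1. In shG9a_4, 9 of the 15 were positive and 6 negative, with a median of 0.15, and none passed. Over all 18435 genes tested, 9262 were positive in shG9a_1 and 9373 in shG9a_4. Among the epithelial markers, KRT14 passed with the block in shG9a_1 at 0.87 (adjusted p = 0.00576, SE 0.097) and in shG9a_4 at 0.74 (adjusted p = 0.0148, SE 0.097), and reads of KRT14 may be shared with its near-identical copies. All 6 fibroblast markers tested had positive log2 fold changes in both hairpins, with medians of 0.36 in shG9a_1 and 0.14 in shG9a_4. None of them passed, and in shG9a_1 1 had an unadjusted p under 0.05 (7.5% of all genes), or 4 with the block (13.3%). The epithelial markers were positive in 6 of 9 in shG9a_1 and in 9 of 9 in shG9a_4, with a median of 0.29 in each. The part of these markers in the members' hairpin differences was not tested.

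The genes whose pattern was most like each member were ranked by Pearson correlation of log2 CPM over the 9 libraries among 12909 genes with enough reads. The libraries share hairpins and numbers, so each value is a description without a test, and it is given again after the mean of each number was taken out. For S100A8 they were ZBTB6 (r = 0.989, 0.953 within numbers), PTPN22 (0.986, 0.894) and CD74 (0.981, 0.843), and for S100A9 CIITA (r = 0.987, 0.940 within numbers), MEFV (0.983, 0.948) and S100A8 (0.981, 0.879). CIITA is the coactivator that turns on MHC class II genes, CD74 is the invariant chain of MHC class II, and MEFV is the inflammasome sensor pyrin. CIITA averaged 15.7, 16.7 and 5.19 CPM in numbers 1, 2 and 3, and CD74 6.89, 8.73 and 0.944 CPM. For S100A14 they were SPINT2 (r = 0.986, 0.728 within numbers), SNORA74A (0.980, 0.866) and MID1 (0.979, 0.642), SPINT2 being an epithelial protease inhibitor, and for S100A2 SLC3A2 (r = 0.972, 0.772 within numbers), SNORA80B (0.968, 0.772) and MID1 (0.960, 0.794).

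For S100A7 the most alike were USP53 (r = 0.972, 0.958 within numbers), ABCA11P (0.972, 0.912) and KDM7A (0.972, 0.909). S100A10 ran closest to TMEM63C (r = 0.960, 0.946 within numbers), MIEF1 (0.945, 0.953) and JUN (0.933, 0.935), S100A11 to RGS20 (r = 0.970, 0.977 within numbers), INKA2 (0.963, 0.972) and LINC00460 (0.956, 0.938), and S100A6 to SND1 (r = 0.967, 0.966 within numbers), GMPPA (0.961, 0.970) and CDKN1A (0.956, 0.987), of which CDKN1A is the cell cycle inhibitor p21. S100A4 ran closest to NEURL1B (r = 0.954, 0.929 within numbers), GPC6 (0.949, 0.944) and IL15 (0.945, 0.914), and S100A16 to C1orf122 (r = 0.974, 0.963 within numbers), FBH1 (0.973, 0.951) and TFE3 (0.960, 0.918). Among the members themselves, S100A8 and S100A9 correlated at 0.981 (0.879 within numbers), S100A2 and S100A14 at 0.915 (0.296 within numbers), and S100A8 and S100A14 at −0.90 (−0.29 within numbers). S100A7 correlated with S100A8 at 0.888 (0.440 within numbers) and with S100A9 at 0.835 (0.211 within numbers). S100A6 and S100A11 correlated at 0.848, and at 0.860 within numbers.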

How the data were processed

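Stranded total RNA libraries, depleted of ribosomal RNA and read as pairs of 75 bases per the labels' protocols, were counted per gene by the authors. They deposited whole-number counts in the layout that STAR writes, and tables per hairpin with posterior probabilities (PPDE, scores from 0 to 1) and folds (ratios), per the file headers. Per the submitters' processing notes the build was GRCh37 (hg19), and DESeq, R 3.3.1, edgeR 3.14.0 and STAR 2.5.2a are listed with no task given.

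The reverse-strand counts went into edgeR 4.0.16 under R 4.3.3 (quasi-likelihood F-test, TMM scaling, filterByExpr) in 1 fit of all 9 libraries with 6 residual degrees of freedom, with Benjamini-Hochberg adjustment over 18435 genes and a threshold of 0.05. Every adjusted p is from edgeR unless DESeq2 1.42.0 is named. The SE of an edgeR log2 value was worked out as its absolute size divided by the square root of the F statistic of its test. Replicates are named biological by the submitters, who do not say how the cultures were started. The replicate number was tested, and used as a block, in a fit with 4 residual degrees of freedom. The numbers pair the libraries as the data show: deviations from group means correlated at 0.178 to 0.461 in all 9 same-numbered pairs, and each of the 9 libraries was closest to its own number. The scripts were tested on simulated data. Alternatives were RLE scaling, DESeq2, no filter, unstranded counts, the block, and each library left out.

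The members, lists and rule for naming genes were chosen with earlier results of these data known. Named by rule were the 10 members, EHMT2, list genes past the threshold in any test or else the 3 of a list with the largest mean change, and the 3 genes most like each member. Other genes were named after their values were seen, for their link to the members or their place between them. Symbols came from a table of gene names for 55277 gene IDs and from GENCODE 29 for 421. Sequences are from RefSeq.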

Additional observations from a re-analysis of the deposited data

How the results depend on the processing

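With the replicate block, 143 genes passed in shG9a_1 in place of 7, 14 in place of 5 in shG9a_4 and 34 in place of 9 for the mean of both hairpins, and 1 member (S100A10) in shG9a_1. With DESeq2 these counts were 80, 21 and 40, and 6 in place of 0 between the hairpins. With no filter on low counts 35793 genes were tested in place of 18435. The counts were then 288, 49, 126 and 106, with 3, 1 and 2 members in shG9a_1, shG9a_4 and the mean of both. By replicate number 2874 genes passed in place of 1377. With unstranded counts 1 gene passed in shG9a_4. With each library left out, the counts were 0 to 10 in shG9a_1, 0 to 7 in shG9a_4, 0 to 11 for the mean and 435 to 2109 by number, where 4 to 6 members passed, and no member passed in a hairpin comparison without the block. The causes were not tested.

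Of the members' log2 fold changes and calls by number, 710 values under alternatives kept their direction and side of the threshold, 12 newly passed it, 9 no longer passed it and 49 changed sign. The block gave 0.0072 for S100A14 in shG9a_4, the only sign it turned. For S100A2 between the hairpins, RLE scaling gave −0.0041, DESeq2 −0.0041 and unstranded counts −0.012. With libraries left out, values in shG9a_1 ran from −0.76 to 0.28 in S100A14, −0.24 to 0.026 in S100A2 and −0.21 to 0.59 in S100A7. With the block as well they were −0.32 to −0.17, −0.22 to −0.085 and −0.33 to 0.37 in the same genes, with −0.0076 for S100A7 without shSCR culture 2. Without the block, values in shG9a_4 ran from −0.48 to 0.53 in S100A14, −0.050 to 0.087 in S100A16, −0.26 to 0.021 in S100A2, −0.028 to 0.0996 in S100A6, −0.89 to 0.50 in S100A7, −0.17 to 0.72 in S100A8 and −0.077 to 0.60 in S100A9. Between the hairpins they ran from −0.19 to 0.72 in S100A14, −0.13 to 0.14 in S100A2, −0.13 to 0.070 in S100A4, −1.03 to 0.27 in S100A7, −0.64 to 0.24 in S100A8 and −0.60 to 0.15 in S100A9. For the mean of both they ran from −0.49 to 0.40 in S100A14, −0.24 to 0.024 in S100A2 and −0.37 to 0.54 in S100A7.

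With 3 cultures a group, the SE of a log2 fold change (median 0.154 over all genes) limits what the hairpin comparisons can show, and for S100A7 so do its 15 to 133 reads. The labels tie the culture number to no day or batch. Fits with the block and a library left out were chosen after seeing the data.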

Other observations

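The family has 10 further genes outside those described above, and 5 of them had enough reads to be tested. S100A3, a member known from hair cuticle and adjacent to S100A4 and S100A2 in the tested order, was at 12.03, 11.1 and 12.03 CPM under shSCR, 13.3, 18.8 and 17.1 under shG9a_1 and 15.1, 12.6 and 14.5 under shG9a_4. All 6 knockdown libraries lay above all 3 shSCR libraries. Over all genes tested, 7.15% lay higher without overlap in shG9a_1 and 3.25% in shG9a_4. S100A3 in shG9a_1 differed from shSCR by a log2 of 0.48 (adjusted p = 0.517, SE 0.13) in edgeR and 0.48 (adjusted p = 0.119, SE 0.13) with the replicate block. In the authors' deposited table its PPDE for that hairpin was 0.480 with a fold of 1.39. S100P, which binds ezrin and RAGE and lies on another chromosome, was at 10.04, 16.8 and 14.1 CPM under shSCR, 19.5, 19.4 and 15.1 under shG9a_1 and 13.2, 16.6 and 12.8 under shG9a_4, with 0.40 (adjusted p = 0.669, SE 0.18) on the log2 scale in shG9a_1 and an adjusted p of 0.210 by culture number. S100A13, a partner in the export of FGF1, was the steadiest of the 5, at 18.2 to 20.9 CPM, and S100A5 was at 0.232 to 0.421 CPM. In S100A5, at 13 to 29 reads per library, all 3 shG9a_4 libraries lay above all 3 shSCR libraries, and shG9a_1 overlapped shSCR. S100A12 is described above.

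S100A1, S100A7A, S100B and S100Z had too few reads to be tested, with at most 0.158 CPM in any library. S100G had 0 reads in all 9 libraries, which allows a level of up to 0.039 to 0.0565 CPM per library at 3 reads, for counting error only. That limit was scaled by all reads in genes, without TMM factors. Of 7 genes that join an S100 domain to a long repeat region, such as FLG, the filaggrin gene, only TCHH was tested, at 0.170 to 0.476 CPM, with log2 fold changes of 0.52 (adjusted p = 0.743, SE 0.29) and 0.93 (adjusted p = 1.00, SE 0.28) in shG9a_1 and shG9a_4. Every knockdown library of TCHH lay above every shSCR library, at 11 to 36 reads per library. Of all genes, 7.15% lay higher without overlap in shG9a_1 and 3.25% in shG9a_4.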
